A study of Mus musculus with 16 samples.

Results

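Heavy chain variable segments (Ighv) are the germline pieces of the immunoglobulin heavy chain locus from which antibodies draw part of their antigen contact. The members were all rows of the gene table whose Ensembl identifier had a symbol starting with Ighv, and there were 185 of them among 35647 rows. They were read in 16 RNA-seq libraries of lamina propria cells, the immune cells beneath the gut epithelium, enriched on a gradient of 40% and 80% Percoll. The mice carried no mutation (genotype wild-type), were born germ-free and had been colonized for 5 weeks with a single bacterium, and every group shares that history. In 4 mice it was *Bifidobacterium breve* Δchat, which lacks acetylcholine production, and in the other 4 mice it was WT *B. breve*. Colon and ileum of each mouse gave 1 library each, so that there were 4 libraries in each of the groups colon Δchat, colon WT, ileum Δchat and ileum WT. Age, sex and mouse strain are not given in the sources used here. The labels do not say how the mice were spread over the isocages that housed them, so strain and isocage cannot be told apart.

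A developing B cell joins a variable, a diversity and a joining segment of the heavy chain locus, and then carries that choice for life and hands it to its progeny. In gut lamina propria most heavy chain RNA comes from plasma cells, B cells that secrete antibody, chiefly IgA, and a plasma cell holds far more of this RNA than a resting B cell. The share of a segment among all Ighv counts is therefore weighted by RNA per cell. Shares of segments are not shares of clones, because many clones can use the same segment and the junction that tells clones apart is not in a gene table. In bulk libraries, more cells of a type and more RNA per cell cannot be told apart.

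All 185 members map to chromosome 12. By their GENCODE M21 types 113 were variable genes, 70 were pseudogenes and 2 were IG_LV genes. They fell into 16 families by the first number of the symbol, and 93 belonged to Ighv1, the largest. A count in at least 1 library was found for 133 members, 108 of them not pseudogenes and 25 pseudogenes, and 83 members had one in every library. Pseudogenes took between 0.00897 and 0.314% of the Ighv counts of a library. Libraries held 15940203 to 23612373 counts in all, of which 65151 to 472217 were Ighv counts. Values were counts estimated by Salmon, which splits reads between similar segments, and 73.7 to 87.8% of the members' nonzero values in a library were not whole.

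Because reads of like segments are split by estimation, the segments that the results turn on are printed here beside their closest relative among the members. Each run is the first 300 letters, 5′ to 3′, of the exon that encodes the variable region, from GENCODE M21 on GRCm38, and capitals mark letters that differ from the partner or have no match in it. The first pair is the most abundant segment, the second is the segment with the highest share in any library, and the third is a segment whose share in every Δchat library lay below every WT library in both tissues.
Ighv1-47: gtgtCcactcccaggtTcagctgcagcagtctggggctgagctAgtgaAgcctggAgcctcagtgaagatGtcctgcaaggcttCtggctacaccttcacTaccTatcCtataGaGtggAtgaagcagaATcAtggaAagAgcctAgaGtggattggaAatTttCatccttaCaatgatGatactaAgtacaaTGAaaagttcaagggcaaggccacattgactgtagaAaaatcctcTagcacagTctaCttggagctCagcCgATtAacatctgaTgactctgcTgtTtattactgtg
Ighv1-86: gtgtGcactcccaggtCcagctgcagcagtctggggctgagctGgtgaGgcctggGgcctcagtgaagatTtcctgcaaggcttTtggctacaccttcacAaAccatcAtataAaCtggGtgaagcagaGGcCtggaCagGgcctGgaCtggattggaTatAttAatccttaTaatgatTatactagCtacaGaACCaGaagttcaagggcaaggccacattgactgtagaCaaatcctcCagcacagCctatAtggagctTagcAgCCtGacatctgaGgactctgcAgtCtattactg
Ighv8-12: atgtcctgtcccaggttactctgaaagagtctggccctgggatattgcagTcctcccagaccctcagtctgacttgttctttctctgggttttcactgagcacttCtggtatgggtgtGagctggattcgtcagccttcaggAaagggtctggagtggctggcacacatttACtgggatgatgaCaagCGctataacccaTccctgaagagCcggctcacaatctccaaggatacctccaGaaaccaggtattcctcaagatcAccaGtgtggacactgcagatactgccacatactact
Ighv8-8: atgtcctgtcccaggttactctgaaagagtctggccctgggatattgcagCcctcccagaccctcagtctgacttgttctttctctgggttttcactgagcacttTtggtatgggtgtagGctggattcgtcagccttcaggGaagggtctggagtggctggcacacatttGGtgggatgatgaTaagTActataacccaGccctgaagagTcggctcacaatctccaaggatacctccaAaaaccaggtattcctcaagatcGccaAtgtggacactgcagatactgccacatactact
Ighv2-5: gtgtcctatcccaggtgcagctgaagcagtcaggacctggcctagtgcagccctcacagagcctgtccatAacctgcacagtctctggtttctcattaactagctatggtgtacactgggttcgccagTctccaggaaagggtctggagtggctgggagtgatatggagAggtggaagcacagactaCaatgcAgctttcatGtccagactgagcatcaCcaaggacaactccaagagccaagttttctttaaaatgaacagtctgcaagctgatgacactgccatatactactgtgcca
Ighv2-4: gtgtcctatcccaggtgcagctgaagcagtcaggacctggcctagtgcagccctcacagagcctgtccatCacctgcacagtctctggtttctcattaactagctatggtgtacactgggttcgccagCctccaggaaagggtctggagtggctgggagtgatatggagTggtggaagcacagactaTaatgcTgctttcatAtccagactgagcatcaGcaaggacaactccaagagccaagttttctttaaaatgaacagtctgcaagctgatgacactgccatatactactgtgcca

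Over the whole exon Ighv1-47 matched its closest relative, the pseudogene Ighv1-86, at 84.8% of positions, and Ighv1-86 had no count in any library. Ighv8-12 matched Ighv8-8 at 94.9%, and Ighv2-5 matched Ighv2-4 at 97.7%. Ighv8-8 was itself well expressed at a mean share of 1.55%, while Ighv2-4 stood at 0.00692%. Of the 133 segments with a count, 14 had a relative at 98% identity or more, and together these 14 held 7.24% of the mean Ighv share. Ighv1-62-2 and Ighv1-71 have the same variable exon letter for letter. For Ighv1-72 only 1.91% of 31-letter words were found in no other member, so its share is uncertain.

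A small part of the segments made up most of the heavy chain RNA. Averaged over the 16 libraries with equal weight, the 5 most abundant segments held 25.8% of Ighv counts, 10 held 39.5%, 20 held 59.4% and 50 held 90.0%. Ighv1-47 (ENSMUSG00000076709) led with a mean share of 10.6% and ranged from 3.55 to 23.3%. It was followed by Ighv8-12 (4.71%), Ighv1-64 (3.71%), Ighv1-82 (3.41%), Ighv1-26 (3.41%), Ighv3-6 (3.06%), Ighv3-5 (2.88%), Ighv5-17 (2.58%), Ighv6-3 (2.57%), Ighv2-5 (2.57%), Ighv1-72 (2.51%) and Ighv4-1 (2.27%). In all, 33 segments had a mean share of at least 1%. At least 5% was reached by 24 segments in some library and at least 10% by 6 segments.

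**Figure D1:**
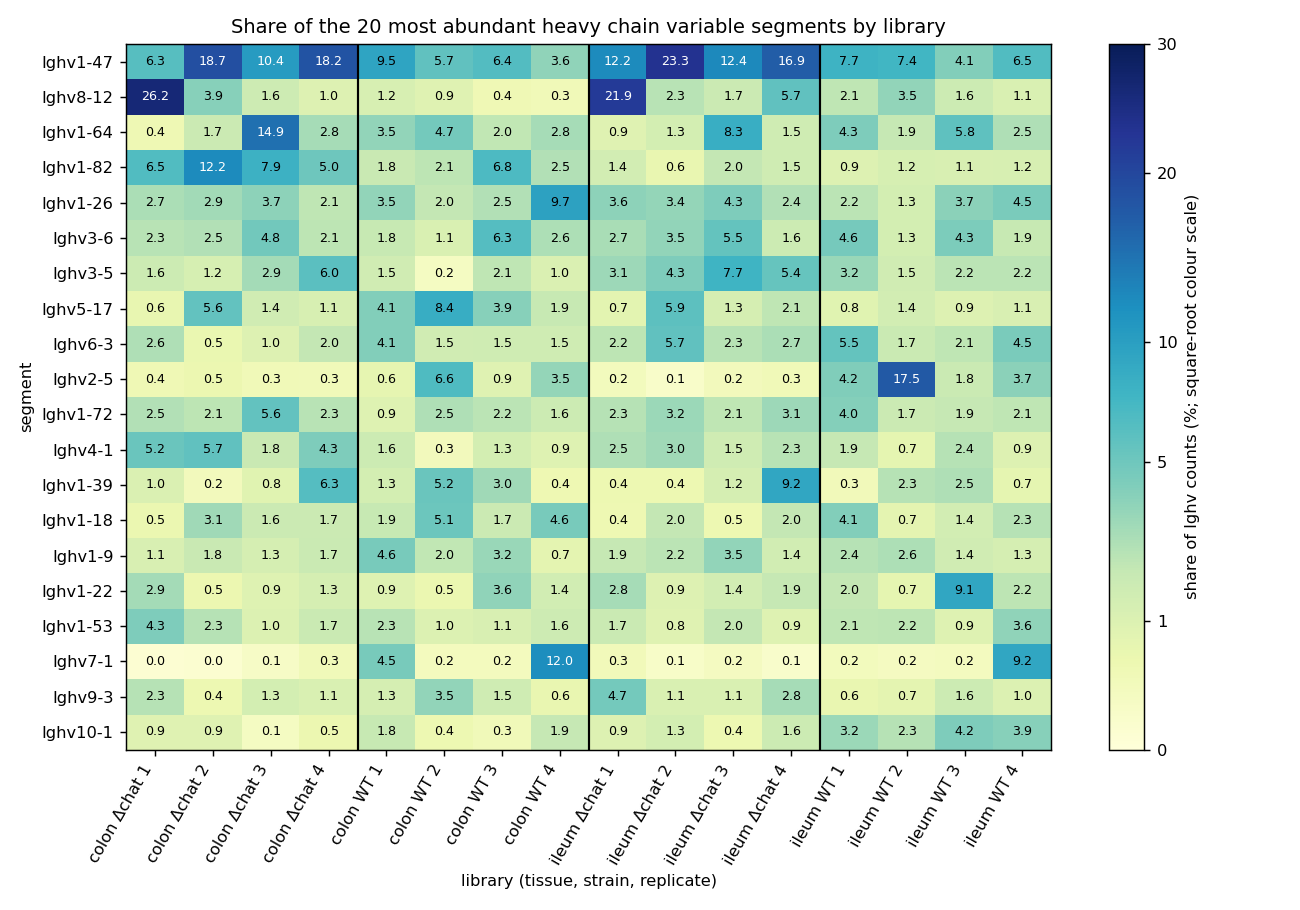
Share of Ighv counts (%, printed in each cell, square-root colour scale) of the 20 segments with the highest mean share, in rows, across the 16 libraries, in columns ordered colon Δchat, colon WT, ileum Δchat and ileum WT. Ighv1-47 has the highest mean share but is not among the 3 most abundant segments in colon WT mouse 4 or ileum WT mouse 3. Some dark cells of other rows, such as Ighv8-12 at 26.2 and 21.9% in Δchat mouse 1, recur in colon and ileum of a mouse. Others do not, such as Ighv5-17 in WT mouse 2 at 8.42% in colon and 1.38% in ileum.

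Ighv1-47 stood out in Δchat mice as a share of Ighv counts. In colon it held 6.25, 18.7, 10.4 and 18.2% in the 4 Δchat libraries, against 9.49, 5.71, 6.44 and 3.55% in the 4 WT libraries. In ileum it held 12.2, 23.3, 12.4 and 16.9% in Δchat libraries, against 7.74, 7.44, 4.05 and 6.53% in WT libraries. The ileum groups did not overlap, with the lowest Δchat library above the highest WT library, whereas in colon Δchat mouse 1 lay below WT mouse 1. Its level relative to all genes differed less. In CPM, counts scaled to a common library size with TMM factors, here within the colon libraries, it stood at 265, 778, 476 and 626 in Δchat and 580, 683, 472 and 394 in WT. The log2 fold change was 0.01 ± 0.31 (SE, edgeR quasi-likelihood test, Benjamini-Hochberg adjusted p = 0.992). In ileum it stood at 1797, 1974, 1269 and 2064 CPM in Δchat and 1160, 1907, 577 and 1068 CPM in WT, a log2 fold change of 0.59 ± 0.33 that did not pass (edgeR adjusted p = 0.547). So the levels overlapped in both tissues, and the higher share stood beside lower levels of most other segments, given below.

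Other segments were high in 1 or a few mice. Ighv8-12 held 26.2, 3.88, 1.57 and 0.964% in colon Δchat, against 1.17, 0.871, 0.359 and 0.314% in colon WT. In ileum it held 21.9, 2.29, 1.70 and 5.70% in Δchat, against 2.10, 3.54, 1.60 and 1.09% in WT. Δchat mouse 1 was far above the rest in both tissues. Ighv1-64 was high in Δchat mouse 3, with 14.9% in colon and 8.28% in ileum, and between 0.393 and 5.79% in every other library. Ighv1-39, named after its values were seen, was highest in Δchat mouse 4, with 6.28% in colon and 9.19% in ileum, and next in WT mouse 2, with 5.21% in colon and 2.31% in ileum, and WT mouse 3, with 3.01% in colon and 2.51% in ileum.

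Ighv2-5 went the other way. It held 0.378, 0.469, 0.314 and 0.301% in colon Δchat, against 0.638, 6.62, 0.862 and 3.45% in colon WT. In ileum it held 0.230, 0.0682, 0.248 and 0.330% in Δchat, against 4.17, 17.5, 1.76 and 3.73% in WT. Every Δchat library was below every WT library in each tissue, and WT mouse 2 held the highest share in both. Relative to all genes its colon level gave a log2 fold change of -4.40 ± 1.01 and its ileum level one of -5.82 ± 1.16, and neither passed (edgeR adjusted p = 0.274 and 0.180). In each tissue Ighv2-5 was called in 1 of 13 alternatives. Ighv7-1 was highest in WT mouse 4, with 11.96% in colon and 9.21% in ileum. WT mouse 1 held 4.51% of it in colon but 0.237% in ileum, and the other 12 libraries held between 0.0119 and 0.307%.

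**Figure D2:**
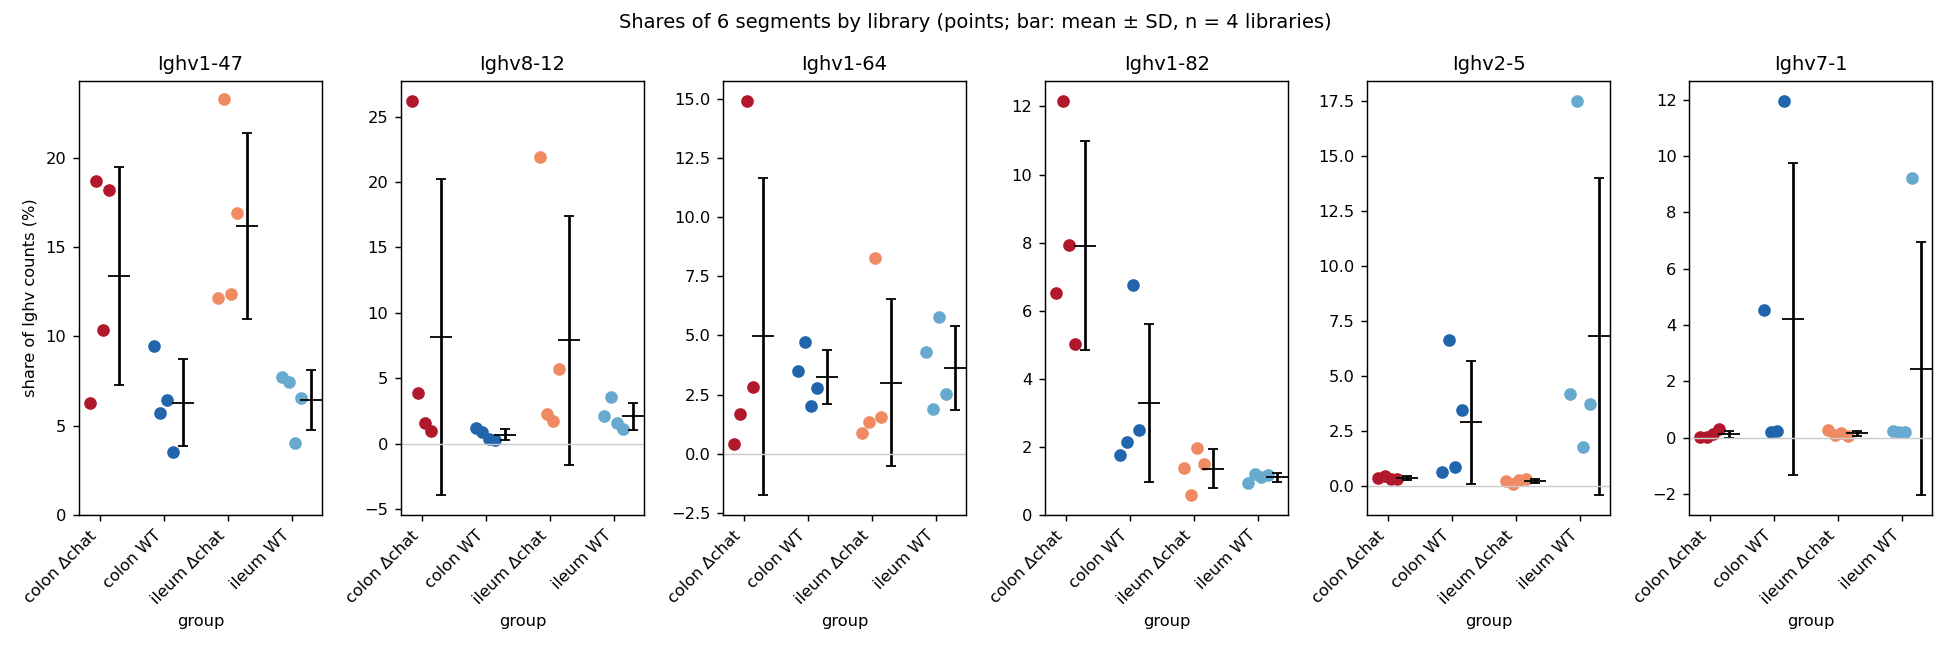
Share of Ighv counts (%) of 6 segments in each library (points, by replicate number from left to right), with mean ± SD of the 4 libraries of each group, for colon Δchat, colon WT, ileum Δchat and ileum WT. Ighv1-47 is high in all Δchat libraries of ileum, Ighv8-12, Ighv1-64 and Ighv7-1 are each highest in 1 mouse, Ighv1-82 is higher in colon, and Ighv2-5 is near 0 in Δchat.

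Ighv1-82 differed mainly by tissue. As a share it averaged 1.36 ± 0.572% in ileum and 7.91 ± 3.07% in colon of Δchat mice, and 1.11 ± 0.125% in ileum and 3.29 ± 2.33% in colon of WT mice (SD, n = 4 each). It was lower in ileum than in colon in all 8 mice. Its level relative to all genes did not pass, with log2 fold changes of ileum over colon of -0.89 ± 0.49 in Δchat and -0.38 ± 0.48 in WT (edgeR adjusted p = 0.245 and 0.589).

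By family, Ighv1 took 56.8% of Ighv counts on average, Ighv3 7.42%, Ighv2 7.05%, Ighv8 6.33% and Ighv5 5.29%. The Ighv2 family was low with Δchat, at 2.02 to 3.56% in colon Δchat against 6.14 to 16.9% in colon WT, and 2.81 to 4.45% in ileum Δchat against 4.73 to 23.5% in ileum WT. Neither tissue showed overlap for Ighv2, the family that holds Ighv2-5. Ighv7 was also lower with Δchat without overlap, at 0.153 to 0.603% against 0.709 to 17.3% in colon and 0.370 to 0.811% against 1.01 to 10.98% in ileum. Ighv10 and Ighv13 were lower without overlap in ileum only. Ighv4 went the other way in colon, at 1.80 to 5.75% in Δchat against 0.254 to 1.63% in WT, and overlapped in ileum. The other families with a count overlapped in both tissues. Ighv1 took 62.8 ± 10.4% in colon Δchat and 56.2 ± 4.199% in colon WT (exact two-sided permutation p = 0.286), and 56.5 ± 6.05% in ileum Δchat and 51.9 ± 3.24% in ileum WT (exact p = 0.229). Along the locus, members were divided into equal parts by their order from the diversity segments. The 62 members farthest from them held 54.6 ± 8.37% of Ighv counts in colon Δchat against 39.2 ± 6.08% in colon WT, and 48.6 ± 3.80% in ileum Δchat against 35.6 ± 3.38% in ileum WT. This part of the locus holds Ighv1-47, Ighv8-12, Ighv1-64 and Ighv1-82. The 61 nearest held 23.7 ± 2.93% in colon Δchat against 35.1 ± 4.55% in colon WT, and 27.5 ± 3.69% in ileum Δchat against 31.9 ± 4.72% in ileum WT. Families and positions were described without a test, other than the Ighv1 share. Shares of a library have a fixed total, so families and positions do not count as separate observations.

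The Ighv repertoire as a whole was more concentrated on few segments in Δchat mice. In the 4 colon libraries the 10 most abundant segments of a library held 66.2, 63.0, 60.1 and 56.2% in Δchat, against 49.7, 49.7, 48.8 and 52.3% in WT. In ileum they held 62.4, 58.3, 52.8 and 53.6% in Δchat, against 46.6, 51.2, 43.3 and 46.5% in WT. All Δchat libraries were above all WT libraries in each tissue. The means were 61.4 ± 4.27% against 50.1 ± 1.48% in colon and 56.8 ± 4.47% against 46.9 ± 3.27% in ileum (SD, n = 4 each). By exact two-sided permutation each difference had p = 0.0286, which is the lowest possible with 4 libraries against 4, and 0.0914 after Benjamini-Hochberg adjustment over the 32 comparisons of 8 measures. None of the 32 passed, and 0.0914 was the smallest adjusted value.

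The effective number of segments, the number of equally used segments that would give the same diversity, told the same way. From Shannon entropy it was 23.98, 27.1, 31.6 and 33.0 in colon Δchat, against 41.6, 41.5, 43.4 and 37.4 in colon WT. In ileum it was 27.6, 29.6, 37.6 and 36.6 in Δchat, against 43.6, 37.8, 47.7 and 44.3 in WT. Groups did not overlap in either tissue, although in ileum the highest Δchat library (37.6) came close to the lowest WT library (37.8). The difference was -12.1 in colon and -10.5 in ileum (exact two-sided permutation p = 0.0286 each, adjusted p = 0.0914). Inverse Simpson, which weighs the top segments more, gave 15.3 ± 3.42 in colon Δchat and 27.5 ± 3.11 in colon WT (exact p = 0.0286, adjusted p = 0.0914), and 17.1 ± 4.82 in ileum Δchat and 28.9 ± 6.33 in ileum WT (exact p = 0.0571, adjusted p = 0.152). With Ighv1-47 left out, an alternative chosen after the data had been seen, the Shannon difference was -9.22 in colon (exact p = 0.0571) and -4.96 in ileum (exact p = 0.229). With segments summed by family it was -0.739 and -0.782 (exact p = 0.171 and 0.0857).

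The share of the single most abundant segment was 19.5 ± 4.78% in colon Δchat and 9.57 ± 1.67% in colon WT (exact two-sided permutation p = 0.0286, adjusted p = 0.0914). In ileum it was 18.6 ± 4.99% in Δchat and 10.9 ± 4.46% in WT (exact p = 0.0857, adjusted p = 0.196). That segment was Ighv1-47 in 5 of the Δchat libraries, Ighv8-12 in both tissues of mouse 1 and Ighv1-64 in colon of mouse 3. In WT it was Ighv1-47 in both tissues of mouse 1 and Ighv7-1 in both tissues of mouse 4. WT mouse 2 had Ighv5-17 in colon and Ighv2-5 in ileum, and WT mouse 3 had Ighv1-76 in colon and Ighv1-22 in ileum. How many segments were present differed less. Thinned to 65151 Ighv counts, libraries held 102 ± 3.46 segments in colon Δchat and 103 ± 1.02 in colon WT (exact p = 0.914), and 101 ± 4.89 in ileum Δchat and 102 ± 3.42 in ileum WT (exact p = 0.914). This rests on rare segments, since with segments under 10 counts set to 0 the difference was -9.96 in colon (exact p = 0.0286) and -6.76 in ileum (exact p = 0.114).

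**Figure D3:**
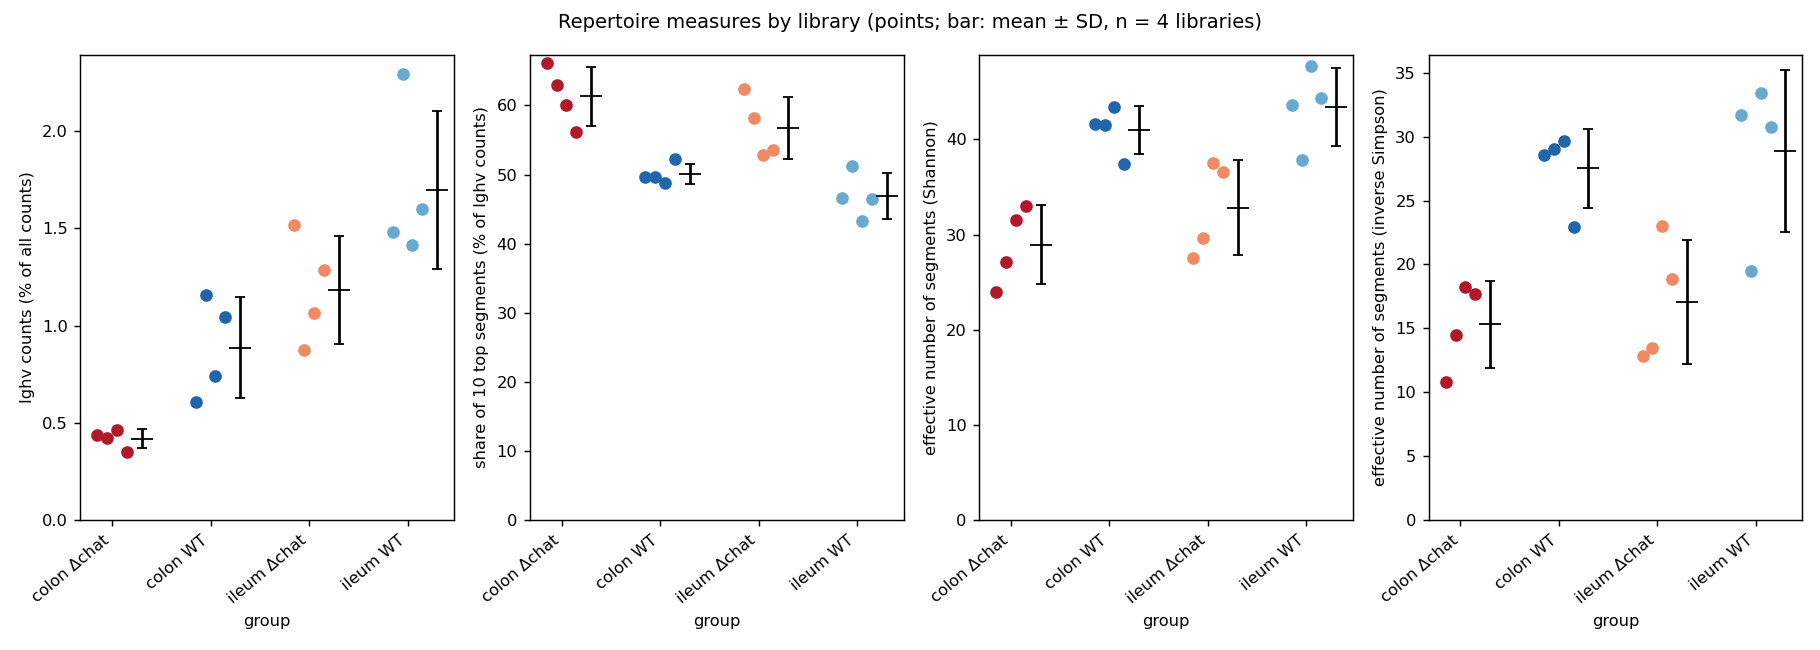
Ighv counts as % of all counts, share of the 10 most abundant segments (% of Ighv counts), and effective number of segments from Shannon entropy and from inverse Simpson, in each library (points), with mean ± SD of the 4 libraries of colon Δchat, colon WT, ileum Δchat and ileum WT. In each tissue the Δchat libraries lie above the WT libraries in top-10 share and below them in Shannon effective number, the ileum Shannon groups nearly touching.

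Ighv counts themselves were a smaller part of the RNA in Δchat mice. They were 0.419 ± 0.0493% of all counts in colon Δchat and 0.887 ± 0.258% in colon WT, with no overlap (exact two-sided permutation p = 0.0286, adjusted p = 0.0914). In ileum they were 1.18 ± 0.278% in Δchat and 1.70 ± 0.405% in WT (exact p = 0.0857, adjusted p = 0.196). Set against heavy chain constant region counts they were even, between 19.6 and 21.8 per 100 in every library. Plasma cell markers moved the same way, with summed levels of 4085 to 5407 CPM in colon Δchat against 7681 to 13461 CPM in colon WT, and all 12 had a negative log2 fold change in colon (median -0.85), none past the threshold. The 10 epithelial markers summed to 261 to 3439 CPM in colon Δchat against 54.0 to 220 CPM in colon WT, all with a positive log2 fold change (median 3.11) and none past the threshold. The 8 macrophage markers summed to 345 to 739 CPM in colon Δchat against 270.1 to 377 CPM in colon WT, again all positive (median 0.76) and none past the threshold. The part of these markers in the Ighv result was not tested.

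Segment by segment, 83 of the 185 members were abundant enough to be tested between strains in colon and 93 in ileum. In colon 0 were called in either direction at an adjusted p under 0.05 by edgeR, against 0.00682% of all genes called higher and 0% called lower. At an unadjusted p under 0.05, 32 were lower with Δchat, or 38.6%, against 5.31% of all genes, and 1 was higher, against 7.99% of all genes. DESeq2 called 16 lower and 0 higher, against 1.07 and 0.886% of the genes it tested. The median log2 fold change was -1.47, against 0.01 over all genes tested, and 70 of the 83 were below 0. In 14 of them every Δchat library lay below every WT library, which is 16.9%, against 3.27% of all genes, and in 0 every Δchat library lay above, against 3.98%. The segments share cells and RNA, so they do not count as separate observations, and a member that passed the filter on low counts only through its higher group had to differ.

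In ileum, again 0 were called by edgeR, against 0% of all genes called higher and 0.0207% called lower. At an unadjusted p under 0.05, 21 were lower, against 6.1% of all genes, and 2 were higher, against 4.81%. DESeq2 called 13 lower and 1 higher, against 1.5 and 0.72% of the genes it tested. The median was -0.89, against 0.01 over all genes tested, with 70 below 0 and 23 above. In 11 every Δchat library lay below every WT library, against 4.1% of all genes, and in 1 every Δchat library lay above, against 3.24%. The limits given for colon, on shared cells and on the filter, hold here too. The smallest p values belonged to Ighv6-6, a segment named after its values were seen, and to Ighv1-31. Ighv6-6 stood at 25.2, 25.5, 25.2 and 51.5 CPM in ileum Δchat, against 669, 591, 185 and 261 CPM in ileum WT (log2 fold change -3.74 ± 0.50, edgeR adjusted p = 0.0739). Ighv1-31, a rare segment, stood at 16.1, 5.93, 6.72 and 9.43 CPM in ileum Δchat, against 0.575, 0.543, 1.79 and 1.01 CPM in ileum WT (3.24 ± 0.47, edgeR adjusted p = 0.0739). Both had groups that did not overlap, in opposite directions. Ighv10-1 stood at 139, 111, 45.6 and 198 CPM in ileum Δchat, against 481, 596, 602 and 637 CPM in ileum WT, again with no overlap (log2 fold change -2.23 ± 0.39, edgeR adjusted p = 0.116). This strain difference of Ighv10-1 in ileum was called in 2 of 13 alternatives.

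Whether the strain effect differed between tissues was tested over 99 members in a fit of all 16 libraries. By edgeR 0 were called, against 0% of all genes called higher and 0.0592% called lower. At an unadjusted p under 0.05, 11 were higher in ileum than in colon, against 4.43% of all genes, and 1 was lower, against 3.3%. DESeq2 called 2 higher and 0 lower, against 0.0434 and 0.304% of the genes it tested. For the measures per library, the tissue difference did not depend on strain past the threshold (exact p from 0.486 to 1).

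The amount of Ighv RNA was higher in ileum than in colon of every mouse. Ighv counts were 1.44 ± 0.423% of all counts in ileum and 0.653 ± 0.303% in colon (SD, n = 8 mice), higher in ileum in 8 of 8 mice (exact two-sided sign-flip permutation p = 0.00781, the smallest that 8 mice allow, adjusted p = 0.0914). In Δchat mice 20 of the 99 tested members were called higher in ileum and 0 lower by edgeR, against 8.31 and 5.03% of all genes. In WT mice 14 were called higher and 0 lower, against 13.7 and 15.1% of all genes. In this fit, which does not pair the tissues of a mouse, the WT share called higher was close to that of all genes. The median log2 fold change of ileum over colon was 1.89 in Δchat and 1.15 in WT, against -0.02 and -0.04 over all genes tested. Every ileum library lay above every colon library for 29 members in Δchat, against 9.38% of all genes, and for 13 in WT, against 16.3%. Here too the segments share cells and RNA, and a member that passed the filter on low counts only through its higher group had to differ. The mouse can be a block, since both tissues came from each mouse. With that block 42 members (42.4%) were called higher and 0 lower in Δchat, against 7.73 and 4.61% of all genes. In WT 35 (35.4%) were called higher and 0 lower, against 12.7 and 13%, so the paired WT share called higher was above that of all genes. DESeq2 called 35 higher in Δchat and 24 in WT, with 0 lower, against 9.07% of the genes it tested called higher and 6.98% lower in Δchat, and 14.6 and 14% in WT. Leaving out a single library gave 11 to 17 in Δchat, with 11 without ileum mouse 1, 12 without colon mouse 3, colon mouse 4 or ileum mouse 4, and 13 without colon mouse 1 or colon mouse 2. In WT it gave 7 to 14, with 7 without colon mouse 1. With no filter on low counts 10 were called in Δchat.

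Ighv6-3, Ighv3-5, Ighv1-47, Ighv10-1 and Ighv3-8 were called higher in ileum in both strains. In Δchat the calls of Ighv3-8 and Ighv10-1 were not held throughout. Ighv3-8 was called in 7 of 13 alternatives and lost without any filter, without colon mouse 1, 2 or 3 and without ileum mouse 2 or 4 (edgeR adjusted p up to 0.0856). Ighv10-1 was called in 10 of 13 and lost without colon mouse 3 or 4 and without ileum mouse 4 (edgeR adjusted p up to 0.0682). Ighv6-3 stood at 344, 518, 239 and 343 CPM in ileum and 104, 21.7, 40.8 and 64.2 CPM in colon of Δchat mice (log2 fold change 2.64 ± 0.46, edgeR adjusted p = 0.00235). In WT mice it stood at 858, 463, 308 and 760 CPM in ileum and 239, 168, 106 and 157 CPM in colon (1.84 ± 0.44, edgeR adjusted p = 0.00886). Every ileum library was above every colon library of the strain. Ighv1-47 rose by a log2 value of 1.89 ± 0.35 in Δchat and 1.26 ± 0.35 in WT (edgeR adjusted p = 0.00342 and 0.0157). Ighv3-5 rose by 2.46 ± 0.53 in Δchat and 2.16 ± 0.52 in WT (edgeR adjusted p = 0.00803 and 0.00915). The largest log2 fold changes among the named calls of each strain were those of Ighv1-31 in Δchat (4.65 ± 0.86, edgeR adjusted p = 0.0033) and Ighv3-8 in WT (3.90 ± 0.88, edgeR adjusted p = 0.00675). Ighv1-31 was rare, with a mean share of 0.0270%, so the limit on the filter given above bears on it. Other named calls were Ighv1-9, Ighv1-55, Ighv1-67 and Ighv9-1 in Δchat, and Ighv4-1, Ighv1-78 and the pseudogene Ighv1-2 in WT, with log2 fold changes from 1.65 to 4.08. Of these, Ighv1-9, Ighv1-55 and Ighv4-1 were called in all 13 alternatives. The rest were not held throughout, with Ighv1-67 called in 12 of 13, Ighv1-78 in 10, and Ighv9-1 and Ighv1-2 in 9 each. Ighv1-67 was also rare, with a mean share of 0.0086%. The Ighv1-2 share in ileum WT was 0.299% in mouse 3 and 0.0193 to 0.0590% in the other mice. Plasma cell markers were also higher in ileum, with 9 of 12 called in Δchat and 7 of 12 in WT, while all 12 B cell markers had a negative log2 fold change in both strains, with 0 called in Δchat and 12 in WT. Macrophage markers were called higher in ileum in 8 of 8 in both strains, with medians of 1.65 in Δchat and 2.21 in WT. Of 8 T cell markers 5 were called higher in Δchat and 6 higher and 1 lower in WT. The part of these markers in the Ighv result was not tested.

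Measures of diversity did not all differ the same way between ileum and colon of a mouse. The 10 most abundant segments held a share lower by 3.91 percentage points in ileum than in colon, with 7 of 8 mice in that direction (exact two-sided sign-flip permutation p = 0.0156, adjusted p = 0.0914). The Shannon effective number was higher in ileum by 3.14, in 7 of 8 mice (exact p = 0.0469, adjusted p = 0.136), and inverse Simpson by 1.54, in 6 of 8 mice (exact p = 0.422, adjusted p = 0.675). The thinned segment number differed by -1.31, higher in ileum in 4 of 8 mice (exact p = 0.523, adjusted p = 0.761). The share of the most abundant segment differed by 0.225 percentage points (exact p = 0.898, adjusted p = 0.975). None of these passed adjustment. The Ighv1 family took 54.2 ± 5.13% in ileum and 59.5 ± 8.16% in colon, lower in ileum in 7 of 8 mice (exact p = 0.0234, adjusted p = 0.0914).

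Colon and ileum of the same mouse used alike sets of segments. The Morisita-Horn similarity of the shares, which is 1 for equal shares and 0 where no segment is shared, averaged 0.780 between colon and ileum of the same mouse, against 0.554 between colon and ileum of different mice with the same strain of bacterium. No other assignment of ileum to colon libraries within strains gave a mean as high (one-sided exact permutation p = 0.00174, the smallest that the 576 assignments allow). For 7 of 8 colon libraries the most similar ileum library of the strain was that of the same mouse, and the exception was WT mouse 1, closer to the ileum of WT mouse 4. In Δchat mice the same-mouse similarity was 0.909, 0.827, 0.844 and 0.912, against 0.590 on average for different mice. In WT mice it was 0.684, 0.655, 0.641 and 0.766, against 0.517 on average for different mice (one-sided exact permutation p = 0.0417 in each strain, the smallest that 24 assignments allow). The summed overlap of shares between both tissues of a mouse was 68.9 to 74.6% in Δchat and 58.7 to 66.96% in WT.

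**Figure D4:**
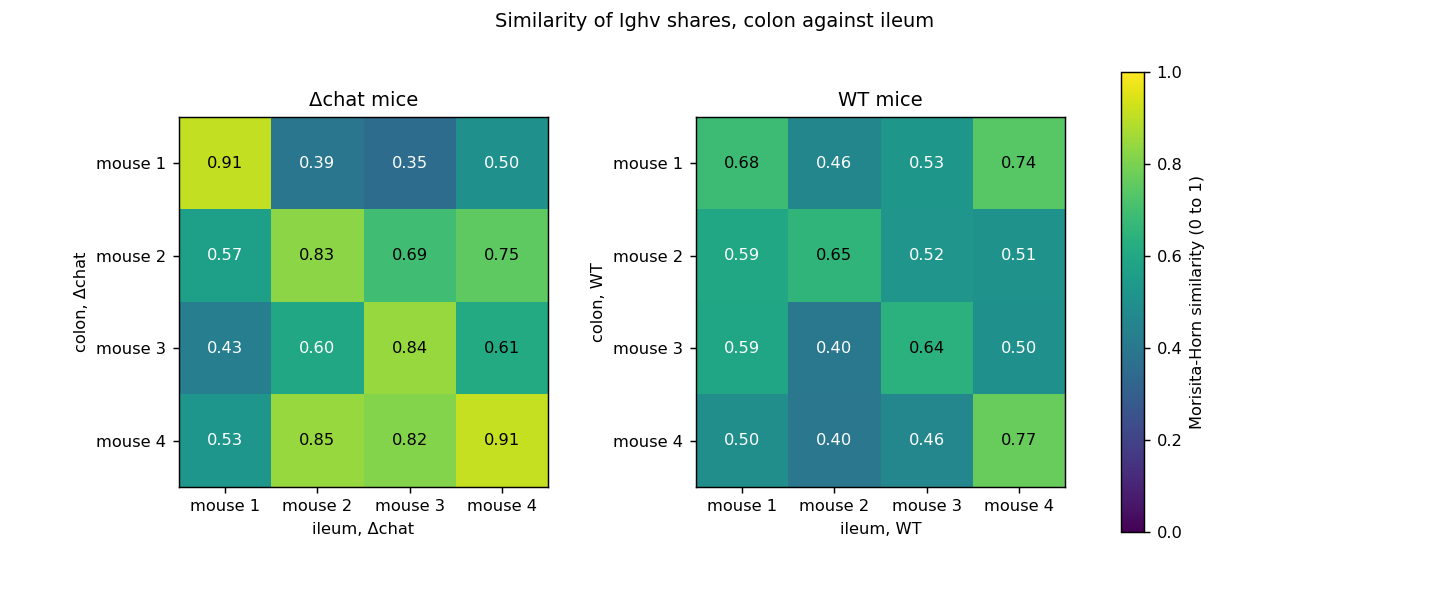
Morisita-Horn similarity (0 to 1, colour and printed value) of Ighv segment shares between each colon library (rows) and each ileum library (columns), in Δchat mice (left) and WT mice (right). The diagonal, colon and ileum of the same mouse, runs from 0.83 to 0.91 in Δchat and from 0.64 to 0.77 in WT, and holds the highest value of every row except WT mouse 1.

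The same-mouse similarity was higher in Δchat than in WT, at 0.873 ± 0.0435 against 0.686 ± 0.0561 (SD, n = 4 mice each). This comparison was made after the values were seen, with 3 measures of similarity. It gave an exact two-sided permutation p of 0.0286, the lowest possible with 4 mice against 4, by Morisita-Horn and by the overlap of shares. Benjamini-Hochberg adjustment over these 3 measures alone, apart from the 32 comparisons above, gave 0.0429 each. Since the comparison was picked with the values known, these p-values are a description and not a test. Without the most abundant segment of each library the values were 0.722 ± 0.0931 in Δchat and 0.669 ± 0.0488 in WT and overlapped (exact p = 0.343). Within a tissue, different mice were alike to a middling degree. The median similarity was 0.590 among colon Δchat mice, 0.566 among colon WT mice and 0.519 between colon Δchat and colon WT mice. In ileum it was 0.726 among Δchat mice, 0.615 among WT mice and 0.506 between Δchat and WT mice. These pairs share libraries and were not tested.

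**Figure D5:**
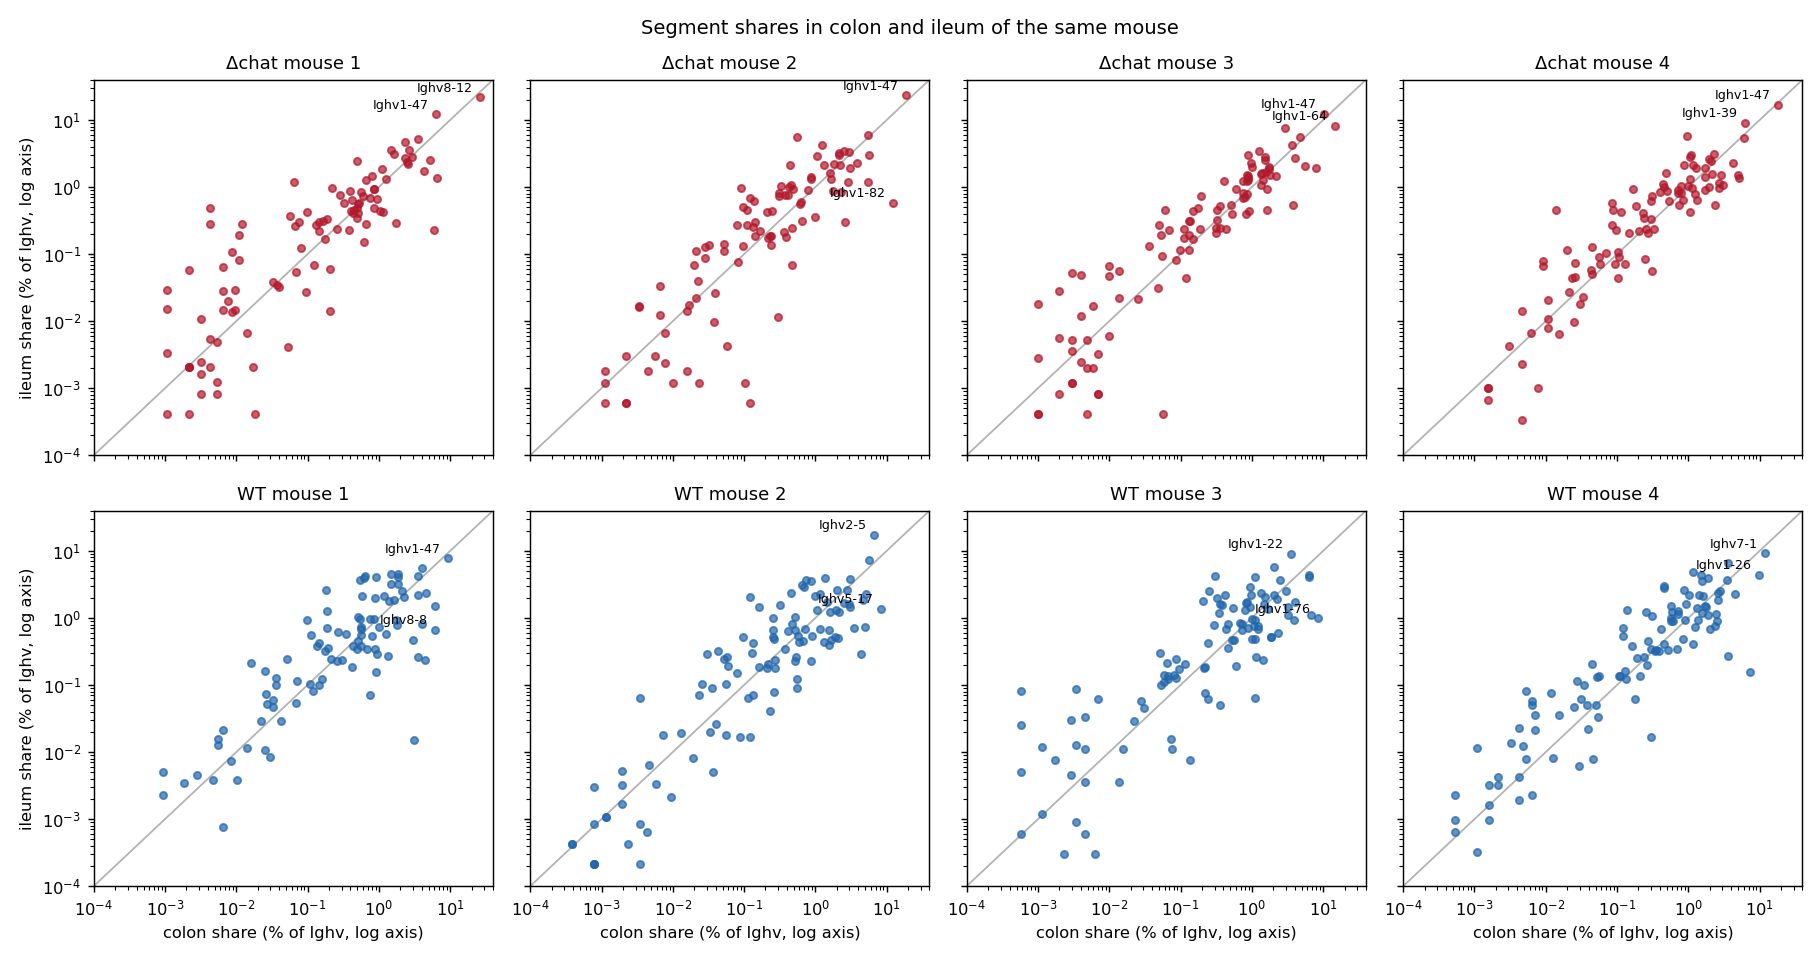
Share of Ighv counts of each segment in colon (x axis, %, log axis) and ileum (y axis, %, log axis) of the same mouse, Δchat mice above and WT mice below. Each point is a segment with a count in both tissues, the line marks equal shares, and the 2 segments with the highest share of each mouse are named, such as Ighv7-1 in WT mouse 4 at 11.96% in colon and 9.21% in ileum.

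Values high for a mouse were collected as those of at least 2% of Ighv counts and at least 3 times the median of the other mice of the tissue, a rule that several mice can meet for the same segment. There were 93 such values from 50 segments, 18 in colon Δchat, 27 in colon WT, 18 in ileum Δchat and 30 in ileum WT. They came from 65 combinations of a segment and a tissue, of which 41 were met by 1 mouse, 20 by 2 mice and 4 by 3 mice. In the other tissue of the same mouse, the segment was again the highest of the 8 mice for 35 of the 93, met the same rule for 22, and exceeded the median of the other mice for 80. The median ratio there was 2.33. A segment that met the rule in both tissues of a mouse entered the 93 once for each tissue. The 22 are therefore all counted from both sides, and the 35 in part. The rule uses the shares themselves, so these counts are a description. Among the highest, Ighv8-12 in Δchat mouse 1, Ighv2-5 in WT mouse 2, Ighv1-64 in Δchat mouse 3, Ighv7-1 in WT mouse 4 and Ighv1-39 in Δchat mouse 4 were high in both tissues. Others were not shared. Ighv1-76 held 8.42% in colon of WT mouse 3 but 0.995% in its ileum. Ighv1-49, named after its values were seen, held 7.42% in colon of WT mouse 4 but 0.155% in its ileum, and at most 0.0054% in any Δchat library.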

How the data were processed

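Polyadenylated RNA of 16 lamina propria libraries was sequenced, per the labels' protocols. The authors deposited estimated counts per gene, and the submitters' processing notes name the tools cutadapt (5.0) and Salmon (1.4.0) and the build GRCm39. Salmon's index, its settings and how transcripts were summed to genes are not given in the sources used here. The values were rounded to whole counts. Segment identity and order came from GENCODE M21 (GRCm38) by gene identifier, so coordinates are not printed. Promoters were not analysed here. The members, lists and named segments were chosen with earlier results of these data known.

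All genes were fitted in R 4.3.3 with edgeR 4.0.16 (filterByExpr, TMM, robust quasi-likelihood, Benjamini-Hochberg over every tested gene, a call being an adjusted p below 0.05), the strains within each tissue and the tissues over 16 libraries. The fit was tested on simulated data. Shares, diversity and similarity used Python 3.11.15 with scipy 1.17.1 and exact permutation tests over libraries or mice. Depth was 65151 to 472217 Ighv counts a library. The p-values between strains within a tissue measure spread between mice. They do not measure spread between isocages, which are not given for the mice. The edgeR fit over 16 libraries did not pair colon and ileum of a mouse, and the mouse block is its alternative. The exact tests between tissues were paired by mouse. The p-value of same-mouse similarity rests on reassigning ileum to colon libraries within strains. Replicate libraries were not copies of each other.

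Named segments were the 12 with the highest mean share, the most abundant of each library, up to 8 called per comparison by smallest p, and up to 8 mouse-specific values of largest share. Others are named only where said to be chosen after their values were seen, except close relatives named for their sequence and segments of the figures.

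Colon and ileum libraries with the same strain and replicate number are from the same mouse, since the library names in the labels share a mouse name. Deviations from the group means correlated between both tissues of a mouse at 0.378 to 0.643 over 99 tested members in all 8 mice, and at -0.180 to 0.274 over all genes. Numbers do not pair mice across strains. Alternatives were RLE size factors, immunoglobulin genes left out of normalization, no filter, DESeq2 1.42.0, the replicate block, unrounded counts, low counts set to 0, family sums, pseudogenes left out, other similarity measures and each replicate left out. Leaving out Ighv1-47 and summing segments at 98% identity were added after the data had been seen.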

Additional observations from a re-analysis of the deposited data

Results flagged for a closer look

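Among 128 groups of 4 libraries, made of 8 measures and the 24 named segments, 14 held a library far from its 3 fellows. Chance flags about 1 in 20 groups, but some of the segments were named because they were high in a library, so the 14 cannot be set against that rate. Most were segment shares. Ighv8-12 held 26.2% in colon of Δchat mouse 1, where the other colon Δchat libraries held 0.964 to 3.88%, and its Ighv1 family share was low there, at 47.2% against 67.4 to 69.0%. Δchat mouse 3 was far from its group for Ighv1-64 in colon (14.9%) and ileum (8.28%), and in colon for Ighv3-6 (4.79%) and Ighv1-72 (5.55%), the last a segment with a near-identical relative. Ighv6-3 stood apart in ileum of Δchat mouse 2 (5.69%) and in colon of WT mouse 1 (4.09%). WT mouse 2 held 17.5% Ighv2-5 in ileum, which also set the share of the most abundant segment there at 17.5%. WT mouse 3 held 6.75% Ighv1-82 in colon and 0.299% of the pseudogene Ighv1-2 in ileum. WT mouse 4 held 9.21% Ighv7-1 in ileum and had the lowest colon WT inverse Simpson number, 22.9, against 28.6 to 29.6.

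As a share of Ighv counts, Ighv4-1 moved in opposite directions between tissues by strain. It was picked out for this pattern among the 24 named segments. Its share was lower in ileum than in colon in all 4 Δchat mice, with a mean difference of -1.92 percentage points and levels of 2.34 ± 0.626% in ileum and 4.26 ± 1.75% in colon. It was higher in ileum than in colon in all 4 WT mice, with 1.46 ± 0.793% in ileum and 1.03 ± 0.596% in colon, a mean difference of 0.434. Δchat minus WT of these differences was -2.35 percentage points, a contrast of shares that was not tested. In CPM the strain effect in ileum over that in colon was -0.87 ± 0.59 on the log2 scale and did not pass (edgeR adjusted p = 0.665). Relative to all genes, the Ighv4-1 level in WT was called higher in ileum in all 13 alternatives, with log2 fold changes from 1.39 to 1.85. The opposite directions were therefore read in shares only.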

How the results depend on the processing

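Of 575 checks of summary results under the alternatives, 526 gave the same reading. For measures and similarity this meant the same direction and side of the threshold. Since none of the 32 measure comparisons had passed, keeping the side says little for them. For counts of called segments it meant a count of like size, not the same segments. Without colon WT replicate 4, for example, 14 were called in WT as in the main fit, but only 9 in both. The excess of same-mouse over different-mouse similarity kept direction and side of the threshold in all of its alternatives, from 0.0281 (Spearman) to 0.226, and from 0.177 to 0.249 with each mouse left out. DESeq2 called 16 lower in colon, 1 higher and 13 lower in ileum, 2 higher for the strain effect between tissues, and 35 (Δchat) and 24 (WT) higher in ileum than colon. With no filter 10 were called in Δchat. With the replicate block, which pairs both tissues of a mouse, calls were 42 in Δchat and 35 in WT. In the strain comparisons the block, which pairs nothing real there, gave 0 calls in colon and ileum, and Ighv1-47 in colon had a log2 fold change of -0.057. Leaving out single libraries gave 0 to 1 lower in colon (1 without WT replicate 1 or WT replicate 4), 0 to 1 higher and 0 to 3 lower in ileum (1 and 3 without Δchat replicate 3), 11 to 17 in Δchat between tissues (at most 13 without any colon Δchat library or without ileum Δchat replicate 1 or 4) and 7 to 14 in WT (7 without colon WT replicate 1). It gave -0.23 to 0.23 for Ighv1-47 in colon. No reversed difference passed the threshold in either direction after adjustment. With counts under 10 set to 0, thinned segment numbers differed by 8.29 (ileum minus colon). By family, values were -5.29 for the top share and 0.213 (ileum, Δchat minus WT) and 0.211 (colon) for thinned number, and for the strain dependence of the tissue difference 0.633 (top-10 share) and -0.0436 (Shannon). Without Ighv1-47, the top share differed by -0.880 between tissues, thinned numbers by 0.115 (colon) and 0.183 (ileum), and the Ighv1 share by -0.442 (ileum). With each mouse left out, thinned numbers ran from -1.78 to 0.814 (colon), from -1.97 to 1.92 (ileum) and from -2.79 to 2.66 (strain dependence), and the top share between tissues from -1.04 to 0.867. Strain dependence ran from -0.149 to 0.0634 for the Ighv percentage, from -0.416 to 0.183 for Ighv per 100 constant counts, from -4.0 to 0.415 for the top share, from -2.24 to 0.207 for the top-10 share, from -0.513 to 3.03 for Shannon and from -3.21 to 2.57 for inverse Simpson. The cause was not tested. Limits are 4 mice per strain, estimated counts between like segments, and no junction sequences.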

Other observations

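Genes that act on the heavy chain locus were read beside the segments. Of 18 genes for rearrangement, hypermutation and class switch, 15 were tested between strains in colon and 16 in ileum, and 0 were called by edgeR, with median log2 fold changes of -0.09 in colon and 0.06 in ileum. All 10 germinal centre genes were below 0 in both tissues, with medians of -1.10 and -0.52 and 0 called. The 12 B cell markers were all below 0 in colon (median -0.43) and all above 0 in ileum (median 0.53), again with 0 called. At an adjusted p under 0.05 the share of all genes called was 0.00682% higher and 0% lower in colon, and 0% higher and 0.0207% lower in ileum.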
